A study of Mus musculus with 16 samples.

Results

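The genes described here are 32 mouse genes that handle lipid: the liver X receptors (LXRs) and other lipid-sensing transcription factors, exporters of cholesterol, enzymes of fatty acid synthesis, elongation and desaturation, fatty acid carriers, coat proteins of lipid droplets, and enzymes that store or release neutral lipid. They were chosen by name and matched to the gene symbols of the count table, in which all 32 of 56980 genes were found. Their messenger RNA was measured by 3′ tag sequencing in bone-marrow-derived macrophages, which are macrophages grown from marrow in the growth factor M-CSF. The 4 groups were GrnKO TKO, GrnKO Rosa26, WT TKO and WT Rosa26, with 4 samples each. GrnKO cells came from Grn-/- mice, which lack progranulin, a secreted and lysosomal protein, and WT cells from Grn+/+ mice. TKO, short here for the label Mitf_Tfe3_Tfeb, marks cells transfected with Cas9 protein and guides for 3 genes at once, Mitf, Tfe3 and Tfeb. Their products are the MiT/TFE factors, known as activators of lysosome and autophagy genes. Rosa26 cells are the control edit. All mice carried a human transferrin receptor knock-in on a C57Bl/6J background, were labelled male and were 12 weeks old, and RNA was taken 10 days after transfection. The edited cells were pools and not clones, grown from frozen stocks, and the share of cells edited is not given in the sources used here. Each of the 4 batches held 1 sample of each group, so each comparison was made within batches. The labels name neither the animal behind a sample nor what a batch is, so p-values measure the spread between these samples, which may in part be technical. The question the design asks is how loss of Grn and loss of the MiT/TFE factors each change gene expression, and whether one depends on the other.

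Macrophages take up lipoproteins and dying cells and so receive more cholesterol and fatty acid than they can burn. Excess cholesterol is oxidised to oxysterols that activate the LXRs, which switch on cholesterol exporters and, through SREBP-1, fatty acid synthesis and desaturation. Fatty acids that are not burned are bound by carrier proteins, joined to glycerol or cholesterol and stored in droplets coated by perilipins, and lipases release them again.

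The total count per library lay between 7069445 and 32969401, with 18387499 to 28511718 in GrnKO TKO, 28431505 to 32969401 in GrnKO Rosa26, 16246549 to 21463565 in WT TKO and 7069445 to 22469333 in WT Rosa26 cells, with the GrnKO Rosa26 group the deepest on average. Grn itself lay between 40.7 and 56.1 CPM (counts scaled to the same library size) in the 8 GrnKO libraries, against 2522 to 3693 CPM in the 8 WT libraries. Among the targeted factors, Tfe3 fell with editing in GrnKO cells (-0.51 ± 0.17, adjusted p = 0.0351, as log2 fold change ± SE) and in WT cells (-0.90 ± 0.17, adjusted p = 0.0108). Tfeb had -0.25 ± 0.12, adjusted p = 0.133 in GrnKO and -0.19 ± 0.12, adjusted p = 0.474 in WT cells, and Mitf rose slightly in GrnKO cells (0.25 ± 0.09, adjusted p = 0.049) and had -0.25 ± 0.09, adjusted p = 0.172 in WT cells. A 3′ tag reads the end of the messenger RNA and does not measure loss of the protein. The 8 macrophage markers summed to 7420 to 8240 CPM in GrnKO TKO, 6060 to 6430 CPM in GrnKO Rosa26, 9540 to 9840 CPM in WT TKO and 8070 to 10400 CPM in WT Rosa26 cells, and none was under 1 CPM on average in any group. The 8 adipocyte markers, which matter because several of the lipid genes are also adipocyte genes, each averaged under 1 CPM in every group and summed to 0.311 to 2.31 CPM per library. The 10 stromal cell markers summed to 92.2 to 102 CPM in GrnKO TKO, 128 to 142 CPM in GrnKO Rosa26, 57.5 to 80.5 CPM in WT TKO and 80.3 to 115 CPM in WT Rosa26 cells, with 8 or 9 of the 10 under 1 CPM on average. Most of the macrophage sum was Lyz2 (4784 to 5462 CPM in GrnKO TKO, 3932 to 4259 CPM in GrnKO Rosa26, 6357 to 6835 CPM in WT TKO and 5407 to 6925 CPM in WT Rosa26 cells), and with loss of Grn in Rosa26 cells 1 of the 8 markers rose (Mertk) and 4 fell (Adgre1, Lyz2, Itgam and Cd14). Nearly all of the stromal sum was 1 gene, Kitl (88.3 to 99.9 CPM in GrnKO TKO, 125 to 139.8 CPM in GrnKO Rosa26, 54.5 to 76.8 CPM in WT TKO and 76.8 to 113 CPM in WT Rosa26 cells). Of the 4 stromal markers tested, Kitl rose and Col1a2 fell with loss of Grn in Rosa26 cells, with a median of 0.01. These markers were named after their values were seen, and the part of these genes in the results below was not tested. In bulk RNA, fewer cells of a type and less RNA per cell cannot be told apart. The labels give male mice, but Ddx3y, a Y-linked gene, was at 31.7 to 122 CPM in 6 libraries (WT batches 2 and 3 and GrnKO batch 4) and at 0.0552 to 1.23 CPM in the other 10. Xist, an X-linked RNA of female cells, was at 169 to 269 CPM in those 10 libraries. In the 6 with Ddx3y it was at 212 and 217 CPM in WT batch 2, 2.93 and 3.95 CPM in WT batch 3, and 15.6 and 25.2 CPM in GrnKO batch 4. The genotypes thus differed in Ddx3y in batches 2, 3 and 4, and its part in the results was not tested. Counts of called genes are therefore also given without the 6 libraries, with the batch term kept, an alternative chosen after the data were seen. Except for loss of Grn in TKO cells, how many of all genes that fit called is not given here. In that fit only batch 1 holds both genotypes, so differences between GrnKO and WT cells rest on 1 sample of each group. Its counts and p-values for those comparisons do not measure how the genotype difference varies between batches. Editing is still compared in batches 1 to 3 in GrnKO cells and in batches 1 and 4 in WT cells.

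Of the 32 genes, 31 were expressed enough to be tested. G0s2, an inhibitor of lipolysis, was at 0.110 to 0.349 CPM and was not tested. A gene is said to have risen or fallen when its adjusted p in edgeR's quasi-likelihood test, over all 15385 genes tested, was under 0.05. The members were not picked from this test, but they were named with earlier results of these data known.

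With loss of Grn in Rosa26 cells, 20 of the 31 lipid genes rose and 3 fell, which is 64.5% and 9.68% of them. Of all genes tested, 23.1% rose and 21.5% fell, 44.6% in all. The median log2 fold change of the lipid genes was 0.49, against 0.00 for all genes. All 4 GrnKO Rosa26 libraries lay above all 4 WT Rosa26 libraries for 19 of the 31 genes, against 19.6% of all genes, and below them for 3, against 15% of all genes. Without the 6 libraries with Ddx3y, where this comparison rests on batch 1, 19 rose and 3 fell. The members took 0.769% to 0.802% of all counts in the 4 GrnKO Rosa26 libraries and 0.409% to 0.663% in the 12 others. Scaled on the authors' CPM and tested with limma-trend, 23 rose and 3 fell; that scaling moved the median of all genes by 0.11 on the log2 scale and gave 4779 higher and 2498 lower calls among all genes, against 3548 and 3310 here.

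With loss of Grn in TKO cells, 6 lipid genes rose and 1 fell, where 2.53% of all genes rose and 2.45% fell, 4.99% in all. The median of the lipid genes was 0.16. The GrnKO TKO libraries lay above all WT TKO libraries for 9 lipid genes, against 4.6% of all genes, and below them for 1, against 3.83% of all genes. Leaving out the 6 libraries with Ddx3y, 3 rose and 0 fell, and without the batch term 3 rose and 0 fell, in each case by edgeR, with 11 and 13 genes at an unadjusted p under 0.05. The fit without the Ddx3y libraries rests on batch 1 for this comparison. Leaving out single libraries gave 4 to 8 called genes, with the 4 reached without WT TKO replicate 2.

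Editing of Mitf, Tfe3 and Tfeb in GrnKO cells lowered 14 lipid genes and raised 2, where 17.8% of all genes fell and 14.8% rose, 32.6% in all. The median of the lipid genes was -0.26, against 0.00 for all genes. The GrnKO TKO libraries lay below all GrnKO Rosa26 libraries for 13 lipid genes, against 18.1% of all genes, and above them for 2, against 13.7% of all genes. In the libraries with little Ddx3y, 18 fell and 2 rose, and fitted on the GrnKO libraries alone, 21 fell and 4 rose. The shares of all genes above are of the main fit, and those of these other fits are not given here. This comparison and the loss of Grn in Rosa26 cells share the GrnKO Rosa26 libraries, so a level that is high or low in those libraries enters both with opposite sign. In the same way, editing in WT cells shares the WT Rosa26 libraries with the loss of Grn in Rosa26 cells. In WT cells, editing lowered 4 lipid genes and raised 2, where 1.16% of all genes fell and 2.18% rose, 3.35% in all, and the median was -0.01. The WT TKO libraries lay above all WT Rosa26 libraries for 3 lipid genes, against 3.34% of all genes, and below them for 3, against 2.28% of all genes. With the 6 Ddx3y libraries left out, 4 fell and 3 rose. With the batch term left out as well, the planned form of that fit, no lipid gene passed by edgeR. There Hilpda had 0.73 (adjusted p = 0.085) and Fabp4 -0.77 (adjusted p = 0.359). With all libraries but no batch term, 1 fell and 1 rose. Leaving out single libraries gave 2 to 6 called genes, with 2 left without WT TKO replicate 4.

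The interaction asks whether editing changed a gene differently in GrnKO than in WT cells. It was below 0 for 11 lipid genes and above 0 for 2, where 7.63% of all genes had a call below 0 and 5.8% one above 0, 13.4% in all. Among the libraries with little Ddx3y these counts were 14 and 2, and without the batch term 6 and 0. Without both the libraries with Ddx3y and the batch term, 6 lipid genes were called in all. The shares of all genes above are of the main fit only. Leaving out single libraries gave 8 to 18 called genes, with 8 without GrnKO Rosa26 replicate 1 and 18 without WT Rosa26 replicate 3.

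**Figure D1:**
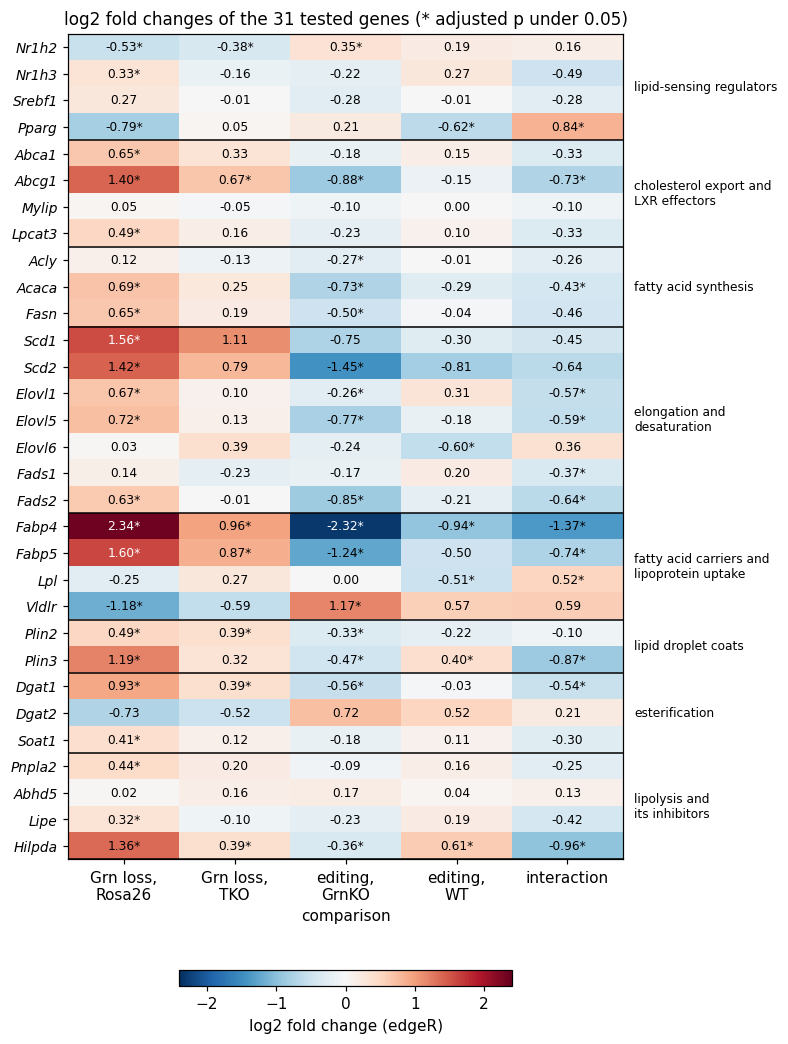
Log2 fold changes (color and number) of the 31 tested lipid genes, grouped by role, in 5 comparisons; an asterisk marks an adjusted p under 0.05. In the column for loss of Grn in Rosa26 cells 20 genes rose and 3 fell, and in the column for editing in GrnKO cells 14 fell and 2 rose.

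The lipid-sensing regulators did not move as 1 group. Nr1h3, which encodes LXR alpha, rose with loss of Grn in Rosa26 cells (0.33 ± 0.12, adjusted p = 0.0276), and its call was lost in 6 of 27 other settings. Nr1h2, which encodes LXR beta, fell with loss of Grn in Rosa26 (-0.53 ± 0.10, adjusted p = 0.000422) and in TKO cells (-0.38 ± 0.10, adjusted p = 0.0402), and rose with editing in GrnKO cells (0.35 ± 0.10, adjusted p = 0.0134). It averaged 26.5 ± 1.42 CPM in GrnKO TKO, 20.8 ± 2.26 CPM in GrnKO Rosa26, 34.5 ± 4.19 CPM in WT TKO and 30 ± 3.31 CPM in WT Rosa26 cells (SD, n = 4 each). The fall of Nr1h2 in TKO cells lost its call in 16 of 27 other settings, and its rise with editing in GrnKO cells in 5.

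Pparg, a nuclear receptor for fatty acids, was at 14.3, 10.6, 17.4 and 12.6 CPM in GrnKO TKO cells and 12.2, 11.3, 14.0 and 9.73 CPM in GrnKO Rosa26 cells. In WT cells, Pparg was at 18.1, 9.94, 15.9 and 9.99 CPM in WT TKO cells and 26.2, 20.5, 21.2 and 14.8 CPM in WT Rosa26 cells, in the order of batches 1 to 4. The WT Rosa26 libraries lay above all 4 GrnKO Rosa26 libraries, and the other 3 groups overlapped each other. Pparg fell with loss of Grn in Rosa26 cells (-0.79 ± 0.13, adjusted p = 7.84e-05) and with editing in WT cells (-0.62 ± 0.13, adjusted p = 0.0105, a call lost in 5 of 27 other settings), but had 0.21 ± 0.13, adjusted p = 0.221 with editing in GrnKO cells, and the interaction was 0.84 ± 0.18, adjusted p = 0.00686. Without both the libraries with Ddx3y and the batch term, the fall with loss of Grn was -0.68, with an adjusted p of 0.0835 by edgeR. The interaction was 0.68 there, with an adjusted p of 0.339, and its call was lost in 2 of 26 other settings. Srebf1, which encodes SREBP-1, lay at 14.4 to 24.3 CPM in the 16 libraries. It passed none of the tests: its log2 fold change was 0.27 ± 0.12, adjusted p = 0.0667 for loss of Grn in Rosa26 cells and -0.28 ± 0.11, adjusted p = 0.0626 for editing in GrnKO cells. With editing in GrnKO cells Srebf1 passed in 9 of 27 other settings, and was -0.30 with an adjusted p of 0.0301 without the 6 libraries with Ddx3y. With loss of Grn in Rosa26 cells it passed in 6 of 27 other settings.

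Of the cholesterol exporters and other LXR effectors, Abcg1 had the largest fold changes. Abcg1, which moves cholesterol to lipoprotein particles, was at 66.2, 69.3, 73.6 and 85.4 CPM in GrnKO TKO cells and 136, 116, 133 and 159 CPM in GrnKO Rosa26 cells. In WT cells, Abcg1 was at 50.4, 34.8, 56.6 and 45.4 CPM in WT TKO cells and 46.2, 43.1, 72.1 and 45.5 CPM in WT Rosa26 cells. The lowest GrnKO Rosa26 library was at 116 CPM and the highest of the others at 85.4 CPM, and the GrnKO TKO libraries overlapped the WT Rosa26 group only through WT Rosa26 replicate 3. Abcg1 rose with loss of Grn 2.64-fold in Rosa26 cells (1.40 ± 0.13, adjusted p = 2.46e-07) and 1.59-fold in TKO cells (0.67 ± 0.13, adjusted p = 0.00481). Editing lowered it in GrnKO cells (-0.88 ± 0.12, adjusted p = 5.93e-05) and gave -0.15 ± 0.13, adjusted p = 0.622 in WT cells, with an interaction of -0.73 ± 0.18, adjusted p = 0.0127. This rise in TKO cells was 0.51 without the 6 libraries with Ddx3y, with an adjusted p of 0.0516.

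Abca1, the exporter that loads cholesterol onto lipid-poor apolipoprotein, rose with loss of Grn in Rosa26 cells (0.65 ± 0.18, adjusted p = 0.00915). Its level was 125, 143, 133 and 168 CPM in GrnKO Rosa26 cells, against 92.3, 75.3, 126 and 71.3 CPM in WT Rosa26 cells. The groups overlapped, because WT Rosa26 replicate 3 lay just above the lowest GrnKO Rosa26 library, by less than the rounding of the deposited counts. Within batch 3 the difference was 0.07 on the log2 scale, against 0.44 to 1.23 in the other batches. With all libraries Abca1 passed no other test, and editing in GrnKO cells gave -0.18 ± 0.17, adjusted p = 0.463. Lpcat3, which puts polyunsaturated fatty acids into phospholipids, rose with loss of Grn in Rosa26 cells (0.49 ± 0.09, adjusted p = 0.000196). Mylip, a ubiquitin ligase for lipoprotein receptors and a textbook LXR target, stayed within 31.1 to 48.3 CPM over all 16 libraries and passed no test, with a log2 fold change between -0.10 and 0.05 in each comparison. So 3 of the 4 genes in this group rose with loss of Grn in Rosa26 cells. Without the 6 libraries with Ddx3y, Abca1 also passed the tests of editing in GrnKO cells (-0.21, adjusted p = 0.0329) and of the interaction (-0.44, adjusted p = 0.012), and Lpcat3 that of the interaction (-0.49, adjusted p = 0.0197). Editing of GrnKO cells gave -0.23 ± 0.09, adjusted p = 0.0502 for Lpcat3, which passed in 10 of 27 other settings.

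In fatty acid synthesis, Acaca and Fasn rose with loss of Grn in Rosa26 cells and Acly, which makes acetyl-CoA from citrate, had 0.12 ± 0.08, adjusted p = 0.203. Acaca, the carboxylase that makes malonyl-CoA, was at 13.2, 13.5, 15.8 and 13.4 CPM in GrnKO TKO cells and 22.9, 20.4, 23.1 and 26.2 CPM in GrnKO Rosa26 cells. In WT cells, Acaca was at 11.5, 11.2, 13.0 and 11.4 CPM in WT TKO cells and 15.2, 13.0, 15.3 and 14.3 CPM in WT Rosa26 cells. The GrnKO Rosa26 libraries lay above all others, and the remaining groups spanned 11.2 to 15.8 CPM. Acaca rose with loss of Grn in Rosa26 cells (0.69 ± 0.09, adjusted p = 1.33e-05) and fell with editing in GrnKO cells (-0.73 ± 0.09, adjusted p = 1.48e-05). In WT cells, all TKO libraries lay below all Rosa26 libraries, but the difference did not pass (-0.29 ± 0.10, adjusted p = 0.122). The gap between WT TKO replicate 3 (12.97 CPM) and WT Rosa26 replicate 2 (13.01 CPM) is within the rounding of the deposited counts. Its interaction was -0.43 ± 0.14, adjusted p = 0.0402 and lost its call in 14 of 26 other settings.

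Fasn, the enzyme that builds palmitate, averaged 16.1 ± 2.02 CPM in GrnKO TKO, 22.9 ± 2.35 CPM in GrnKO Rosa26, 14.3 ± 2.06 CPM in WT TKO and 14.9 ± 4.24 CPM in WT Rosa26 cells (SD, n = 4 each). It rose with loss of Grn in Rosa26 cells (0.65 ± 0.14, adjusted p = 0.000835) and fell with editing in GrnKO cells (-0.50 ± 0.13, adjusted p = 0.00742), and its rise was 0.44 with an adjusted p of 0.0647 without the 6 libraries with Ddx3y. All 3 genes of this group, Acly included (-0.27 ± 0.08, adjusted p = 0.0125), fell with editing in GrnKO cells, and with editing in WT cells Acly had -0.01 ± 0.08, adjusted p = 0.966 and Fasn -0.04 ± 0.14, adjusted p = 0.937.

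Of the 7 genes of elongation and desaturation, 5 rose with loss of Grn in Rosa26 cells, and 4 fell with editing in GrnKO cells. Scd1 and Scd2 place the double bond that turns stearate into oleate. They are neighbours of similar sequence on chromosome 19, and how the counting split reads between such copies is not given in the sources used here. Scd2 was at 93.8, 106, 94.6 and 118 CPM in GrnKO TKO cells and 311, 246, 259 and 324 CPM in GrnKO Rosa26 cells. In WT cells, Scd2 was at 65.8, 42.3, 88.4 and 54.5 CPM in WT TKO cells and 149, 63.0, 167 and 71.3 CPM in WT Rosa26 cells. WT Rosa26 replicates 1 and 3 were well above replicates 2 and 4, and still the GrnKO Rosa26 libraries lay above all of them. Scd2 rose with loss of Grn in Rosa26 cells (1.42 ± 0.28, adjusted p = 0.00202) and fell with editing in GrnKO cells (-1.45 ± 0.27, adjusted p = 0.00286). In WT cells, Scd2 had -0.81 ± 0.28, adjusted p = 0.171 with editing, and its interaction was -0.64 ± 0.39, adjusted p = 0.303.

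Scd1 was at 25.4, 39.6, 23.1 and 34.6 CPM in GrnKO TKO cells and 53.6, 45.6, 45.4 and 64.9 CPM in GrnKO Rosa26 cells. In WT cells, Scd1 was at 15.9, 9.94, 20.6 and 12.3 CPM in WT TKO cells and 23.1, 13.7, 25.7 and 11.0 CPM in WT Rosa26 cells. All GrnKO TKO libraries were above all WT TKO libraries and below all GrnKO Rosa26 libraries, yet neither difference passed (1.11 ± 0.32, adjusted p = 0.0805 for loss of Grn in TKO cells, -0.75 ± 0.30, adjusted p = 0.082 for editing in GrnKO cells). Scd1 rose with loss of Grn in Rosa26 cells (1.56 ± 0.32, adjusted p = 0.00263). DESeq2 called the rise in TKO cells (adjusted p = 0.0128), and without GrnKO TKO replicate 2, the library of highest Scd1 in its group, the fall with editing in GrnKO cells was -1.03 with an adjusted p of 0.0228.

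Fads2 and Fads1 are desaturases of polyunsaturated fatty acids whose genes lie on opposite strands of chromosome 19. Fads2 was at 47.4, 49.5, 43.1 and 44.7 CPM in GrnKO TKO cells and 96.5, 70.0, 76.9 and 94.4 CPM in GrnKO Rosa26 cells. In WT cells, Fads2 was at 47.2, 36.7, 50.1 and 54.5 CPM in WT TKO cells and 55.4, 43.8, 63.1 and 54.9 CPM in WT Rosa26 cells. Only the GrnKO Rosa26 libraries exceeded 63.1 CPM, and the other 3 groups overlapped. Fads2 rose with loss of Grn in Rosa26 cells (0.63 ± 0.11, adjusted p = 0.00012) and fell with editing in GrnKO cells (-0.85 ± 0.11, adjusted p = 1.48e-05), with -0.21 ± 0.11, adjusted p = 0.349 in WT cells and an interaction of -0.64 ± 0.15, adjusted p = 0.011. Fads1 had 0.14 ± 0.08, adjusted p = 0.195 for loss of Grn in Rosa26 cells and passed only the interaction (-0.37 ± 0.12, adjusted p = 0.0475), a call lost in 17 of 26 other settings.

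Among the elongases, Elovl5, which acts on polyunsaturated fatty acids, and Elovl1, which acts on saturated and very long ones, both rose with loss of Grn in Rosa26 cells (0.72 ± 0.13, adjusted p = 0.00033 for Elovl5, 0.67 ± 0.08, adjusted p = 4.74e-06 for Elovl1). Both fell with editing in GrnKO cells (-0.77 ± 0.13 for Elovl5, -0.26 ± 0.08 for Elovl1), and the interaction was -0.59 ± 0.19, adjusted p = 0.0463 for Elovl5, a call lost in 14 of 26 other settings. Elovl1 was higher in every WT TKO library than in any WT Rosa26 library, without passing the test (0.31 ± 0.08, adjusted p = 0.0517; 0.49 with an adjusted p of 0.00819 without the 6 libraries with Ddx3y), and the interaction of Elovl1 was -0.57 ± 0.12, adjusted p = 0.00496. Elovl6, which lengthens palmitate to stearate, lay at 3.50 to 9.58 CPM and passed only the test of editing in WT cells, where it fell (-0.60 ± 0.16, adjusted p = 0.0445), a call lost in 18 of 27 other settings.

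The fatty acid carriers held the largest change of the set. Fabp4, a cytosolic fatty acid carrier of macrophages and adipocytes, was at 13.8, 22.8, 17.9 and 16.7 CPM in GrnKO TKO cells and 75.1, 100.4, 87.4 and 88.5 CPM in GrnKO Rosa26 cells. In WT cells, Fabp4 was at 8.22, 9.94, 11.8 and 6.81 CPM in WT TKO cells and 13.2, 19.9, 25.2 and 12.6 CPM in WT Rosa26 cells. The GrnKO Rosa26 libraries were at 75.1 CPM or more, every other library was at 25.2 CPM or less, and the lowest group was WT TKO. Loss of Grn raised Fabp4 5.05-fold in Rosa26 cells (2.34 ± 0.14, adjusted p = 7.17e-10) and 1.95-fold in TKO cells (0.96 ± 0.14, adjusted p = 0.000562). Editing lowered it to 0.201 of its Rosa26 level in GrnKO cells (-2.32 ± 0.13, adjusted p = 1.2e-09) and to 0.52 of it in WT cells (-0.94 ± 0.15, adjusted p = 0.000973), with an interaction of -1.37 ± 0.19, adjusted p = 0.000338. With both factors changed, GrnKO TKO cells had a log2 fold change of 0.02 ± 0.14, adjusted p = 0.95, against WT Rosa26 cells.

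Fabp5, the carrier of the same family whose gene lies on the same chromosome, was at 772, 1055, 841 and 813 CPM in GrnKO TKO cells and 2181, 2190.3, 1957 and 1858 CPM in GrnKO Rosa26 cells. In WT cells, Fabp5 was at 444, 503, 649 and 354 CPM in WT TKO cells and 739, 664, 946 and 428 CPM in WT Rosa26 cells. As for Fabp4, all GrnKO Rosa26 libraries lay above all others and all GrnKO TKO above all WT TKO libraries. Fabp5 rose with loss of Grn in Rosa26 cells (1.60 ± 0.16, adjusted p = 4.06e-06) and in TKO cells (0.87 ± 0.16, adjusted p = 0.00673), and fell with editing in GrnKO cells (-1.24 ± 0.16, adjusted p = 8.47e-05). Its difference with editing in WT cells did not pass (-0.50 ± 0.16, adjusted p = 0.11) but had an adjusted p of 0.0243 without the 6 libraries with Ddx3y, and its interaction of -0.74 ± 0.22, adjusted p = 0.0423 lost its call in 14 of 26 other settings.

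Lpl, the secreted lipase that frees fatty acids from lipoproteins, was at 1931, 2078, 2156 and 2033 CPM in GrnKO TKO cells and 2002, 2038, 2097 and 2035 CPM in GrnKO Rosa26 cells. In WT cells, Lpl was at 1809, 1429, 2299 and 1408 CPM in WT TKO cells and 2769.9, 2259, 2929 and 1919.9 CPM in WT Rosa26 cells. The 8 GrnKO libraries lay close together, while the WT libraries spread wider, with the lowest levels in WT TKO replicates 2 and 4. Lpl fell with editing in WT cells (-0.51 ± 0.10, adjusted p = 0.00875) and had 0.00 ± 0.10, adjusted p = 0.981 in GrnKO cells, with an interaction of 0.52 ± 0.15, adjusted p = 0.0269. The fall in WT cells lost its call in 5 of 27 other settings, among them without WT Rosa26 replicate 1 or WT TKO replicates 2 or 4, and the interaction in 8 of 26. For loss of Grn in Rosa26 cells Lpl had -0.25 ± 0.10, adjusted p = 0.0566, which passed in 9 of 27 other settings. It was -0.45 without the 6 libraries with Ddx3y, where this comparison rests on batch 1. Vldlr, a receptor that takes up triglyceride-rich lipoproteins, was at 5.52, 3.96, 3.68 and 3.42 CPM in GrnKO TKO cells and 1.86, 1.13, 2.38 and 2.06 CPM in GrnKO Rosa26 cells. In WT cells, Vldlr was at 6.58, 6.21, 4.30 and 8.17 CPM in WT TKO cells and 2.92, 4.04, 2.704 and 7.13 CPM in WT Rosa26 cells. Its levels were a few CPM, and its GrnKO Rosa26 libraries were the lowest of all 16. Vldlr fell with loss of Grn in Rosa26 cells (-1.18 ± 0.28, adjusted p = 0.0022) and rose with editing in GrnKO cells (1.17 ± 0.27, adjusted p = 0.00314), the opposite directions to the carriers. Its log2 fold change was -0.97 without the 6 libraries with Ddx3y, with an adjusted p of 0.0625.

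Both droplet coat genes rose with loss of Grn in Rosa26 cells and fell with editing in GrnKO cells. Plin2, the main droplet coat of macrophages, averaged 658 ± 38.8 CPM in GrnKO TKO, 824 ± 49.4 CPM in GrnKO Rosa26, 505 ± 51.1 CPM in WT TKO and 591 ± 92.6 CPM in WT Rosa26 cells (SD, n = 4 each). It rose with loss of Grn in Rosa26 (0.49 ± 0.08, adjusted p = 0.000112) and in TKO cells (0.39 ± 0.08, adjusted p = 0.0107), its fall with editing in GrnKO cells was -0.33 ± 0.08, adjusted p = 0.00586, and its interaction was -0.10 ± 0.12, adjusted p = 0.605. The rise of Plin2 in TKO cells lost its call in 5 of 27 other settings, among them without WT TKO replicate 2 or GrnKO TKO replicate 2, and was 0.21 with an adjusted p of 0.468 without the 6 libraries with Ddx3y. Plin3, a coat that moves between cytosol and droplets, was at 55.2, 75.9, 68.3 and 69.1 CPM in GrnKO TKO cells and 89.4, 94.3, 90.9 and 94.4 CPM in GrnKO Rosa26 cells. In WT cells, Plin3 was at 50.4, 49.7, 50.7 and 63.6 CPM in WT TKO cells and 30.8, 39.7, 49.6 and 42.2 CPM in WT Rosa26 cells. The GrnKO Rosa26 libraries were the highest and the WT Rosa26 libraries the lowest, with both TKO groups between them. The gap between WT Rosa26 replicate 3 (49.6 CPM) and WT TKO replicate 2 (49.7 CPM) is within the rounding of the deposited counts. Plin3 rose with loss of Grn in Rosa26 cells (1.19 ± 0.10, adjusted p = 5.99e-08) and had 0.32 ± 0.10, adjusted p = 0.0709 in TKO cells. Editing lowered Plin3 in GrnKO cells (-0.47 ± 0.10, adjusted p = 0.00154) and raised it in WT cells (0.40 ± 0.10, adjusted p = 0.0368), with an interaction of -0.87 ± 0.14, adjusted p = 0.000961; the rise in WT cells lost its call in 9 of 27 other settings.

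**Figure D2:**
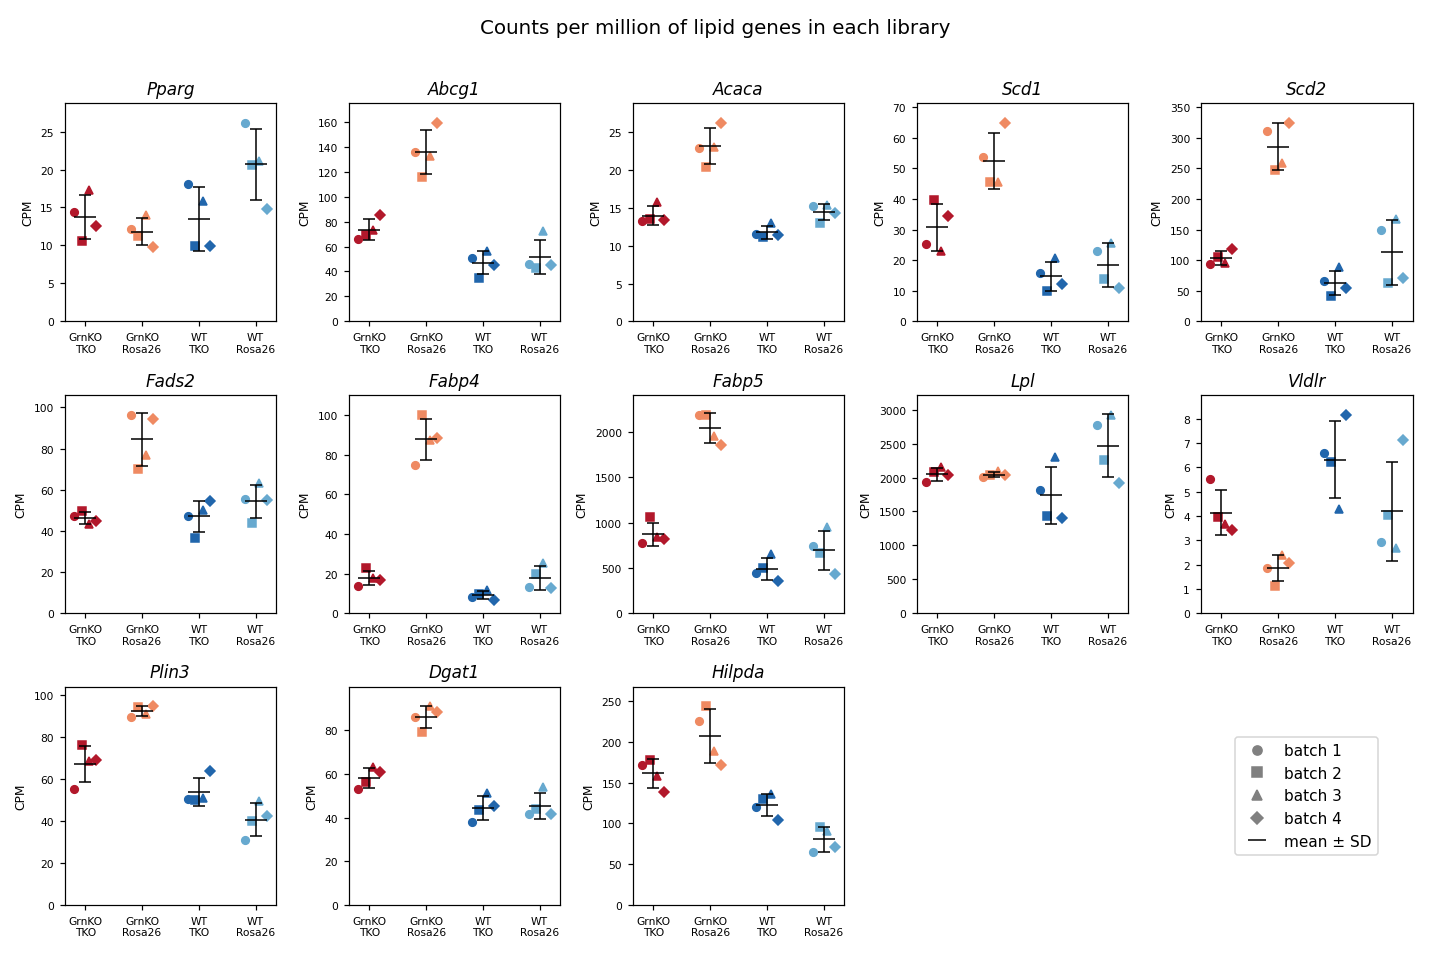
CPM in each library of the 13 lipid genes with a called log2 fold change of 1 or more either way, or among the 4 of smallest p, in any of 5 comparisons. Symbols mark batches, and bars are the mean ± SD of 4 libraries. For Fabp4 the GrnKO Rosa26 libraries are at 75.1 CPM or more and all others at 25.2 CPM or less, while for Hilpda and Plin3 the means of both TKO groups lie between GrnKO Rosa26 and WT Rosa26.

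In esterification, Dgat1 and Soat1 rose with loss of Grn in Rosa26 cells and Dgat2 passed no test. Dgat1, which makes triglyceride from diacylglycerol, was at 53.0, 56.1, 63.1 and 61.0 CPM in GrnKO TKO cells and 85.8, 79.1, 90.9 and 88.5 CPM in GrnKO Rosa26 cells. In WT cells, Dgat1 was at 37.8, 43.5, 51.3 and 45.4 CPM in WT TKO cells and 41.5, 43.8, 54.1 and 41.7 CPM in WT Rosa26 cells. Every GrnKO Rosa26 library lay above every GrnKO TKO library, and these lay above every WT TKO library. Dgat1 rose with loss of Grn in Rosa26 (0.93 ± 0.08, adjusted p = 4.58e-08) and in TKO cells (0.39 ± 0.08, adjusted p = 0.00587), fell with editing in GrnKO cells (-0.56 ± 0.08, adjusted p = 2.81e-05), and had -0.03 ± 0.08, adjusted p = 0.916 with editing in WT cells, with an interaction of -0.54 ± 0.11, adjusted p = 0.00437. Its rise in TKO cells was 0.49 without the 6 libraries with Ddx3y, with an adjusted p of 0.0766. Soat1, which esterifies cholesterol for storage, lay at 658 to 1108 CPM and rose with loss of Grn in Rosa26 cells (0.41 ± 0.08, adjusted p = 0.00034). Dgat2, the unrelated enzyme of the same reaction, lay at 0.270 to 1.04 CPM, too low for a narrow estimate (-0.73 ± 0.40, adjusted p = 0.142 for loss of Grn in Rosa26 cells).

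Of the genes of lipolysis and its inhibitors, Pnpla2, Lipe and Hilpda rose with loss of Grn in Rosa26 cells. Hilpda, a droplet protein that inhibits the first lipase of the pathway, was at 171, 178, 158 and 138 CPM in GrnKO TKO cells and 225, 243, 189 and 171 CPM in GrnKO Rosa26 cells. In WT cells, Hilpda was at 121, 130.5, 136 and 104 CPM in WT TKO cells and 64.6, 95.8, 90.1 and 71.3 CPM in WT Rosa26 cells. Each GrnKO TKO library was above each WT TKO library, and each of these above each WT Rosa26 library, while GrnKO Rosa26 and GrnKO TKO overlapped. The gap between GrnKO TKO replicate 4 (138 CPM) and WT TKO replicate 3 (136 CPM) is within the rounding of the deposited counts. Hilpda rose with loss of Grn in Rosa26 (1.36 ± 0.09, adjusted p = 4.53e-09) and in TKO cells (0.39 ± 0.09, adjusted p = 0.0176), where the call was lost in 6 of 27 other settings, among them without GrnKO TKO replicates 1 or 4 or WT TKO replicates 2 or 4. Editing lowered Hilpda in GrnKO cells (-0.36 ± 0.09, adjusted p = 0.00597) and raised it in WT cells (0.61 ± 0.09, adjusted p = 0.000915), and the interaction was -0.96 ± 0.13, adjusted p = 0.000223. The lipase it inhibits, Pnpla2, rose with loss of Grn in Rosa26 cells (0.44 ± 0.10, adjusted p = 0.0014) and had -0.09 ± 0.10, adjusted p = 0.533 with editing in GrnKO cells. Lipe, the hormone-sensitive lipase, rose with loss of Grn in Rosa26 cells by 0.32 ± 0.12, adjusted p = 0.0306, a call lost in 9 of 27 other settings. Abhd5, the co-activator of Pnpla2, passed no test and lay at 36.8 to 52.8 CPM over all libraries.

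Set side by side, editing changed more of the lipid genes past the test in GrnKO than in WT cells, as it did among all genes (32.6% against 3.35%). The interaction was the test of that difference for each gene. Of the 11 genes with an interaction below 0, Fabp4 fell in both genotypes, further in GrnKO cells. Hilpda and Plin3 fell in GrnKO and rose in WT cells. Abcg1, Fabp5, Acaca, Fads2, Elovl5, Elovl1 and Dgat1 fell in GrnKO cells and did not pass in WT cells with all libraries in the fit, and Fads1 passed neither. The 2 genes with an interaction above 0, Pparg and Lpl, fell in WT cells and passed no test in GrnKO cells.

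**Figure D3:**
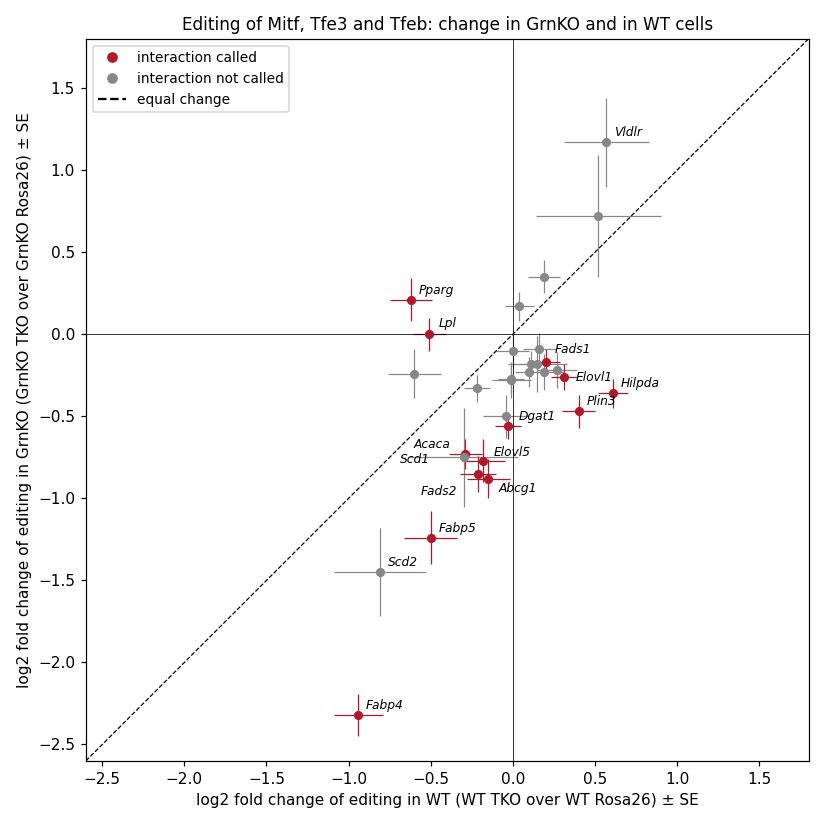
Log2 fold change ± SE with editing in GrnKO cells (y) and in WT cells (x) for the 31 tested lipid genes, with called interactions in red and equal change on the dashed line. Fabp4 has -2.32 in GrnKO and -0.94 in WT cells, Hilpda has -0.36 in GrnKO and 0.61 in WT cells, and Pparg has 0.21 in GrnKO and -0.62 in WT cells.

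GrnKO TKO cells were also set against WT Rosa26 cells, the group with neither change. Here 6 lipid genes were higher and 1 was lower, where 6.43% of all genes were higher and 6.25% lower, 12.7% in all. The GrnKO TKO libraries lay above all WT Rosa26 libraries for 6 lipid genes, against 5.7% of all genes, and below them for 0, against 3.85% of all genes. Those higher were Hilpda (1.00 ± 0.09, adjusted p = 3.05e-06), Plin3 (0.72 ± 0.10, adjusted p = 0.000184), Abcg1 (0.52 ± 0.13, adjusted p = 0.0123), Elovl1 (0.41 ± 0.08), Dgat1 (0.37 ± 0.08) and Pnpla2 (0.36 ± 0.10), and Pparg was lower (-0.58 ± 0.13, adjusted p = 0.00709). The call was lost in 8 of 27 other settings for Pnpla2, in 5 for Abcg1 and in 3 each for Dgat1 and Pparg. Fitted on these 2 groups alone, 3 were higher and 0 lower, and without WT Rosa26 replicate 3 12 passed in all. Leaving out the libraries with Ddx3y, where this comparison rests on batch 1, 7 were higher and 2 lower.

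The rises with loss of Grn in Rosa26 cells were not equal across batches. Within batches 1 to 4, the median log2 difference of the 20 genes that rose was 0.82, 0.82, 0.46 and 0.99. Batch 3 had the smallest difference for 16 of the 20, and it is the batch in which WT Rosa26 replicate 3 was the highest of its group for Abcg1, Abca1, Scd2, Fabp4 and Fabp5. Each of the 20 genes was still higher in GrnKO than in WT Rosa26 cells in every batch. The WT libraries of batch 3 are among the 6 with Ddx3y, so this pattern and the Ddx3y level cannot be told apart within that batch.

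**Figure D4:**
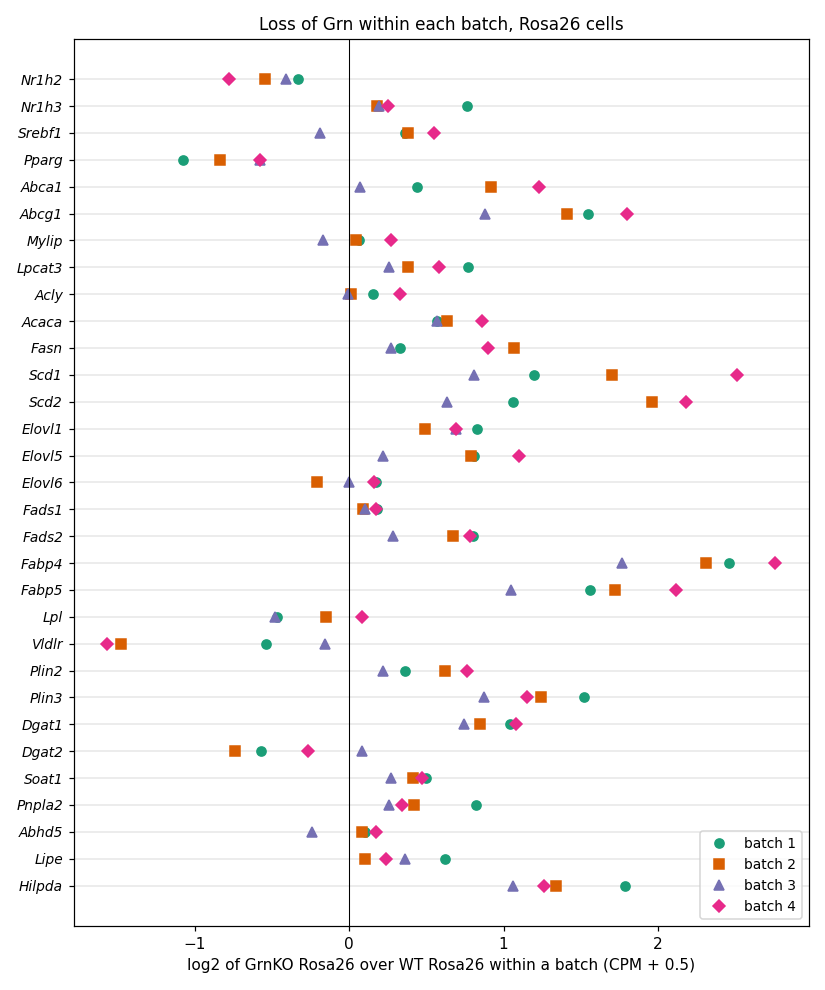
Log2 ratio of GrnKO Rosa26 over WT Rosa26 within each batch (CPM + 0.5) for the 31 tested lipid genes. Triangles (batch 3) lie furthest left for most genes that rose, as for Fabp4 at 1.77 against 2.31 to 2.76 in the other batches.

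Genes of the same pathways outside the 32 were read from lists written by hand, of which each gene tested is counted. Their counts stand beside the 23.1% of all genes that rose and 21.5% that fell with loss of Grn in Rosa26 cells, and the 14.8% that rose and 17.8% that fell with editing in GrnKO cells. In a list of 9 genes that make, carry or use acetyl-CoA or supply NADPH, 2 of them enzymes of sterol synthesis, 6 rose and 0 fell with loss of Grn in Rosa26 cells, and 6 fell and 0 rose with editing in GrnKO cells. The 2 sterol enzymes are among both counts: Acat2, which joins acetyl-CoA units for sterol synthesis, had 0.94 ± 0.10 and -0.77 ± 0.09, and Mvd, a later enzyme of that route, 0.91 ± 0.09 and -0.47 ± 0.09. The other 4 genes that rose with loss of Grn had 0.26 to 0.32. Of 16 partners of the nuclear receptors and of sterol sensing, 5 rose and 3 fell with loss of Grn in Rosa26 cells, with Insig1, which holds back SREBP processing, at 1.08 ± 0.09, adjusted p = 1.99e-08, and Scap, which carries SREBP, at 0.65 ± 0.11, adjusted p = 0.000132. Insig1 also rose in TKO cells (0.46 ± 0.08, adjusted p = 0.0034) and fell with editing in GrnKO cells (-0.60 ± 0.08, adjusted p = 3.46e-05). Of 15 other LXR and sterol export genes, 5 rose and 1 fell with loss of Grn in Rosa26 cells, and 6 rose and 4 fell with editing in GrnKO cells. In that list, Lipa, the lysosomal acid lipase, and Nceh1, a cholesterol ester hydrolase, rose with loss of Grn in Rosa26 (0.52 ± 0.06 and 0.77 ± 0.10) and in TKO cells (0.35 ± 0.06 and 0.46 ± 0.10). Apoc2, the apolipoprotein cofactor of Lpl, rose with editing in GrnKO (1.25 ± 0.17, adjusted p = 2.85e-05) and in WT cells (1.42 ± 0.18, adjusted p = 9.3e-05), the opposite direction to Abcg1 in GrnKO cells.

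Of 10 other uptake receptors and carriers, 4 rose and 3 fell with loss of Grn in Rosa26 cells. Fabp3, another carrier of the Fabp family, rose (2.08 ± 0.16, adjusted p = 1.26e-08) and fell with editing in GrnKO cells (-1.17 ± 0.14, adjusted p = 9.5e-06), with an interaction of -1.52 ± 0.22, adjusted p = 0.000367. Cd36, a fatty acid translocase and textbook target of Pparg, fell with loss of Grn in Rosa26 cells (-0.75 ± 0.11, adjusted p = 5.47e-05) and with editing in WT cells (-0.66 ± 0.11, adjusted p = 0.00317), and its interaction was 0.70 ± 0.16, adjusted p = 0.0096. Of 14 other elongases, desaturases and acyl-CoA synthases, 7 rose and 5 fell with loss of Grn in Rosa26 cells, among them Acsl3 (0.43 ± 0.07) and Acsl4 (-0.67 ± 0.08), which activate fatty acids. Of 15 genes of glycerolipid synthesis, 5 rose and 1 fell, with Gpat4, an enzyme of the first step, at 1.04 ± 0.11, adjusted p = 1.38e-06, and -0.82 ± 0.11, adjusted p = 3.6e-05 with editing in GrnKO cells. Of 11 other genes of droplet assembly and lipolysis, 2 rose and 2 fell. Mgll, the lipase of the last step, was at 0.717, 1.52, 1.68 and 1.18 CPM in GrnKO TKO and 18.9, 22.2, 23.8 and 17.7 CPM in GrnKO Rosa26 cells, against 0.603, 0.311, 0.177 and 0.272 CPM in WT TKO and 1.38, 0.548, 0.811 and 0.603 CPM in WT Rosa26 cells. Mgll rose with loss of Grn in Rosa26 cells (4.77 ± 0.25, adjusted p = 1.32e-10) and fell with editing in GrnKO cells (-3.99 ± 0.22, adjusted p = 3.19e-10), larger in size than any of the 31 tested lipid genes in both comparisons.

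The start regions of the lipid genes were searched for short motifs, to show which of them hold the letters that MiT/TFE factors, LXRs and SREBPs are known to bind. RefSeq start windows of 250 bases before to 50 bases after the start (GRCm38.p6, a different build from the GRCm39 of the counts) matched 23 of the 32 genes, in 32 windows. The core E-box CACGTG, which reads the same on both strands, was in 4 of the 32 windows, against 7.15% of 32851 windows of all genes. Each match is shown in capitals with 40 bases before it and, where the gene start lies further on, 40 bases after it, 5′ to 3′ on the strand of the gene: Abca1 (chr4:53159997-53160082, minus strand, 147 bases before the start), Elovl5 (chr9:77917164-77917249, plus strand, 161 bases before), Lipe (chr7:25396097-25396182, minus strand, 155 bases before) and Plin2 (chr4:86670058-86670103, minus strand, 4 bases before and across the start).
Abca1: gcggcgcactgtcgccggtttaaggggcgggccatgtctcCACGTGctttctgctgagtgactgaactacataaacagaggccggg
Elovl5: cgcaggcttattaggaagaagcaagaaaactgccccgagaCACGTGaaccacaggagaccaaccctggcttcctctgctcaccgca
Lipe: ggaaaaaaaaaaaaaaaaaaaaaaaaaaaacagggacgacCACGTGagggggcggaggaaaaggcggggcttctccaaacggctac
Plin2: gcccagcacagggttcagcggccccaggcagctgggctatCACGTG
Of these 4 genes, Elovl5 (-0.77 ± 0.13) and Plin2 (-0.33 ± 0.08) fell with editing in GrnKO cells, and Abca1 (-0.18 ± 0.17, adjusted p = 0.463) and Lipe (-0.23 ± 0.11, adjusted p = 0.132) did not pass that test. The longer E-box TCACGTGA, which contains the core, was in 0 of the 32 windows and in 0.974% of all windows. The consensus LXR element DR4, a repeat of the nuclear receptor half-site, was in 0 of the 32 and in 0.0152% of all windows. The sterol regulatory element of SREBPs was in 0 of the 32 and in 0.0913% of all, each searched on both strands for the exact consensus. CCAAT was in 14 of the 32 windows and in 37.4% of all, and the GC box GGGCGG in 21 and in 35.7% of all. A match is a description of these letters and no site of binding.

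For 6 of the 32 genes (Srebf1, Lpcat3, Elovl1, Abhd5, Lipe and G0s2), the last 500 bases overlap a gene on the other strand in the GENCODE annotation. The kit keeps strand, but whether the counting used it is not given in the sources used here, so their counts are uncertain to that extent.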

How the data were processed

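RNA from 16 macrophage samples in 4 groups of 4 was read by 3′ tag sequencing with molecular identifiers (QuantSeq FWD), per the labels' protocols. The submitters' processing notes name STAR 2.7.9a, Salmon 1.10.1, edgeR 4.6.2, R 4.5.1 and the GRCm39 build, with no role or order. The authors deposited estimated counts for 56980 genes. Of their nonzero values, 11% were not whole, and all were written to 2 significant digits, an error of at most 5%. The authors also deposited a normalized signal in CPM, a library size and a ratio used as normalization factor per library. For counts of 100 or more, that signal equals the deposited counts over the effective library size within 10% for 100% of values.

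Counts were rounded to whole numbers here, kept where edgeR's filterByExpr passed (15385 genes), and scaled by TMM. The test was the quasi-likelihood test of edgeR 4.0.16 (R 4.3.3; glmQLFit with robust estimation, glmQLFTest) on group and batch over all 16 samples, with Benjamini-Hochberg adjustment over all genes tested and a threshold of 0.05. The common biological coefficient of variation was 12%. CPM are rounded counts over TMM-scaled library sizes, printed with SD over 4 libraries, and a standard error is the log2 fold change over the root of its F value. Within-batch differences are of log2(CPM + 0.5). The scripts were tested on simulated data. In the labels every batch holds 1 sample of each group. Deviations from group means of libraries of one batch correlated at 0.363 on average within GrnKO (lowest 0.254) and 0.351 within WT (lowest 0.259), and at 0.0506 to 0.106 on average across genotypes, where single pairs reached -0.199. The batch term was kept as in the study's labels. It has no term for genotype within batch, so TKO and Rosa26 libraries of the same genotype and batch are treated as independent. For that reason p-values between genotypes can be too small, and those for editing and the interaction too large.

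All 32 members are named. Values in every library are given for members called with a log2 fold change of 1 or more either way, or among the 4 of smallest p, in any of the first 5 comparisons. Of other pathway lists, only genes among the 4 of smallest p in a comparison are named. The members and lists were chosen with earlier results of these data known. Alternatives were scaling by RLE, other filters on low counts, DESeq2 1.42.0, limma-trend (limma 3.58.1) on the authors' CPM, no batch term, only the groups compared, leaving out each library, and leaving out the libraries with Ddx3y over 5 CPM without the batch term. The same fit with the batch term was added after seeing the data. Some single genes are not reported by name here. Promoter windows are from RefSeq (GRCm38.p6).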

Additional observations from a re-analysis of the deposited data

Results flagged for a closer look

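For 13 of the 31 tested lipid genes, against 13.4% of all genes, the change with editing differed between GrnKO and WT cells by edgeR's interaction test (adjusted p under 0.05). The interaction, in log2 units of GrnKO minus WT, was below 0 for the fatty acid carriers Fabp4 (-1.37) and Fabp5 (-0.74). It was below 0 for the droplet proteins Hilpda (-0.96) and Plin3 (-0.87), for the cholesterol exporter Abcg1 (-0.73) and for the triglyceride enzyme Dgat1 (-0.54). Of the enzymes that make and modify fatty acids, it was -0.64 for Fads2, -0.59 for Elovl5, -0.57 for Elovl1, -0.43 for Acaca and -0.37 for Fads1. It was above 0 for the nuclear receptor Pparg (0.84) and for the lipase Lpl (0.52). The calls of Fabp5, Elovl5 and Acaca were each lost in 14 of 26 other settings, that of Fads1 in 17 and that of Lpl in 8.

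In 5 groups of 4 libraries 1 library stood apart from the other 3 by Dixon's criterion, where chance alone picks about 1 in 20 groups and 124 groups were examined. GrnKO TKO replicate 3 had 15.8 CPM of Acaca, with 13.2 to 13.5 CPM in the other GrnKO TKO libraries. GrnKO Rosa26 replicate 1 had 751 CPM of Plin2, with 839 to 855 CPM in the others of its group. GrnKO Rosa26 replicate 4 had 32.4 CPM of Lipe, with 28 to 28.6 CPM in the others. WT TKO replicate 4 had 63.6 CPM of Plin3, with 49.7 to 50.7 CPM in the others. WT Rosa26 replicate 3 had 72.1 CPM of Abcg1, with 43.1 to 46.2 CPM in the others.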

How the results depend on the processing

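No fold change of a lipid gene changed sign from a called value under any alternative run. Of 2002 values under other settings, 1824 kept their side of the threshold, 75 no longer passed and 103 newly passed. Of 2976 values with 1 library left out these were 2818, 119 and 39. A change of sign among values that did not pass was not counted. The batch term (replicate block) mattered most for the small comparisons. Without the replicate block, the called genes and lipid genes were 345 and 3 for loss of Grn in TKO cells, 216 and 2 for editing in WT cells, 910 and 6 for the interaction, and 732 and 3 for GrnKO TKO against WT Rosa26 cells. DESeq2 called 1208 genes for loss of Grn in TKO cells and 808 for editing in WT cells, against 767 and 515 by edgeR. Fitted on the groups compared alone, 488 genes were called for loss of Grn in TKO cells, 25 lipid genes for editing in GrnKO cells, and 502 genes and 3 lipid genes for GrnKO TKO against WT Rosa26 cells. Without the 6 libraries with Ddx3y, the calls for loss of Grn in TKO cells were 112 genes and 3 lipid genes with the block, and 50 and 2 without it. With the block, that comparison of genotypes rests on batch 1. Without both those libraries and the block, 2294 genes were called for editing in GrnKO cells, 15 genes and 0 lipid genes for editing in WT cells (8 lipid genes at an unadjusted p under 0.05 by edgeR), 388 and 6 for the interaction, and 152 and 4 for GrnKO TKO against WT Rosa26 cells; the cause was not tested, but fewer libraries enter these fits. With 1 library left out, the counts of called genes and of lipid genes lay at 5784 to 7284 and 21 to 24 for loss of Grn in Rosa26 cells, 278 (without WT TKO replicate 2) to 1145 (without WT Rosa26 replicate 3) and 4 to 8 in TKO cells, 3520 to 5587 and 13 to 18 for editing in GrnKO cells, 262 (without WT Rosa26 replicate 2) to 750 and 2 to 6 for editing in WT cells, 1206 (without WT TKO replicate 4) to 3608 (without WT Rosa26 replicate 3) and 8 to 18 for the interaction, and 947 (without WT Rosa26 replicate 2) to 2703 (without WT Rosa26 replicate 3) and 5 to 12 for GrnKO TKO against WT Rosa26 cells. On the authors' CPM with limma-trend (pseudocount 0.5), the higher and lower calls among all genes were 650 and 2020 for the interaction, against 893 and 1174, 1697 and 3203 for editing in GrnKO cells, against 2271 and 2740, and 472 and 128 for editing in WT cells, against 336 and 179; without a filter on low counts they were 4265 and 2625 for loss of Grn in Rosa26 cells. Depth limits Vldlr, Dgat2 and G0s2, at a few CPM or less, and the WT Rosa26 group holds the shallowest library. A family member that shares sequence (Scd1 and Scd2, Fabp4 and Fabp5) is uncertain where the counting split reads.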
